A study of Mus musculus with 4 samples.

Results

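Connexins are membrane proteins that assemble into ring-shaped hemichannels. When hemichannels of neighbouring cells dock they form gap junctions, through which ions, second messengers and small metabolites pass. Pannexins resemble connexins in topology but form mostly undocked channels, best known for releasing ATP. In mammary tissue and carcinomas both families are studied for cell coupling, and connexin 43, the product of Gja1, is also the main connexin of astrocytes, the cells that brain-seeking tumour cells meet in the brain.

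The genes described here are 8 connexin and pannexin genes, Gja1, Gja4, Gja5, Gjb2, Gjb5, Gjc1, Panx1 and Panx2, of 22180 genes with a symbol of their own on the array. Each was taken where a probe set was annotated to that symbol alone, which gave 1 probe set a gene, 8 of 41345 in all. A further probe set annotated to both Gpr89 and Gja5 was not used. RNA abundance was measured in 4T1Br, which the sample titles call 4T1, a mouse breast cancer cell line. The shControl group (2 arrays) carried a control hairpin and the shYTHDF3 group (2 arrays) a hairpin against Ythdf3, a reader of N6-methyladenosine in RNA. Hairpins came by lentivirus in both groups, and both were selected with puromycin. The hairpin sequences, the number of hairpins, the time of harvest and whether the cells were clonal or pooled were not given in the sources used here. Separate cultures are not named either, so the p-values cover the spread between these 4 arrays only, and part or all of it may be technical.

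Values are log2 expression after the authors' RMA normalization, and a change or difference is the shYTHDF3 mean minus the shControl mean. Values of different genes come from different probes, so levels were set against background and not against each other, except in the marker sums given below. Background was set at 4.28, the 95th percentile of the mean values of 1108 olfactory receptor probe sets, genes that a mammary line has little cause to express. Array medians lay between 4.42 and 4.47. Ythdf3 read 8.98 and 8.81 with the control hairpin and 8.21 and 8.16 with the Ythdf3 hairpin, so 61.1% of its shControl level remained (limma adjusted p = 0.0355). That call was lost without the filter on dim probe sets (limma adjusted p = 0.0866), over every probe set past the filter (0.188) and with any 1 array left out (0.141 to 0.188). Of the epithelial markers, Krt8 and Krt18, the keratins of simple epithelia, read 10.11 and 10.51 on average in shControl. Epcam lay below background and Cdh1, which encodes E-cadherin, read 4.42, just above it. None of 6 leukocyte markers and 1 of 6 endothelial markers, Cdh5 at 4.36 in shControl, lay above background. Of 5 astrocyte and neuron markers 2 did, Rbfox3 at 5.41 and Aldh1l1 at 4.33 in shControl. Whether readings of that size reflect expression of the gene was not tested.

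Gja1 is the member whose transcript differed most, and its start site region is shown as background. No result here rests on that region, and whether its motifs bear on the Gja1 level was not tested. The window below, from RefSeq on the GRCm38.p6 build, spans chr10:56377050-56377349 on the plus strand, from 250 bases before the start site to 50 bases after it. Capitals mark the only match to the AP-1 motif TGANTCA, which is bound by Fos and Jun proteins. It begins 19 bases before the start site.

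Gja1: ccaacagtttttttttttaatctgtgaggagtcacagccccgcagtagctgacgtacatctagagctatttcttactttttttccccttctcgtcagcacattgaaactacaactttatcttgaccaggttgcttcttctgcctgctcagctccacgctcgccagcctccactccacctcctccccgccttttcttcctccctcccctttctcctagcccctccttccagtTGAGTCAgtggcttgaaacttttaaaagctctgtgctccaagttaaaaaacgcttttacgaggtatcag

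The search covered both strands of the promoters of the 6 members in the RefSeq table, Gja1, Gja4, Gja5, Gjb2, Gjb5 and Panx1. The AP-1 letters were found in 1 of these windows, that of Gja1, against 7.81% of all 32851 windows of the same length. The GC box GGGCGG, bound by Sp1 and related factors, had no match in the Gja1 window. It matched once each in the Gja4 and Gja5 windows and at 2 places in that of Gjb2, and 35.7% of all windows hold it. TGACGT, the core of the cyclic AMP response element, matched once in Gja1, 201 bases before the start site, and 7.51% of all windows hold it. The TATA box letters TATAAA matched in Gjb5 alone of the 6, against 13.6% of all windows. That match lay on the reverse strand of the window, 243 bases before the start site. No motif overlapped another in the Gja1 window. The Gja1 window held 47.7% G and C bases, below the median of 52.7% over all windows and below the other 5 members, which ranged from 54.3% in Gjb5 to 70.0% in Gjb2. These matches describe letters in a window and are not measured sites.

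Gja1 was well above background on every array and lower with the Ythdf3 hairpin. Its probe set 17233347 (Entrez 14609) read 9.68 and 9.76 with the control hairpin and 8.78 and 8.79 with the Ythdf3 hairpin. Both shYTHDF3 arrays lay under both shControl arrays, with a gap of 0.89 between the nearest arrays of the groups against ranges of 0.080 and 0.0082 within them. Non-overlap in the downward direction was found in 25.7% of all genes tested. The change was -0.93 (SE 0.09, 95% interval -1.16 to -0.71; limma adjusted p = 0.0217), so 52.3% of the shControl level remained (95% interval 44.8% to 61.2%). Even the lower level, 8.78, was higher than the mean of each of the 1108 olfactory receptor probe sets. In bulk RNA, fewer cells with the transcript and less transcript per cell cannot be told apart.

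Across the whole array, 65 of 13056 genes tested fell further than Gja1, and 37 had a smaller p-value. The SD of the Gja1 values around their group means was 0.040, smaller than the value of 0.109 that limma fitted as typical of all genes, and limma raised it to 0.091 for the test. The SE printed above therefore rests mostly on the spread of other genes and not on the near-identical Gja1 replicates.

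**Figure D1:**
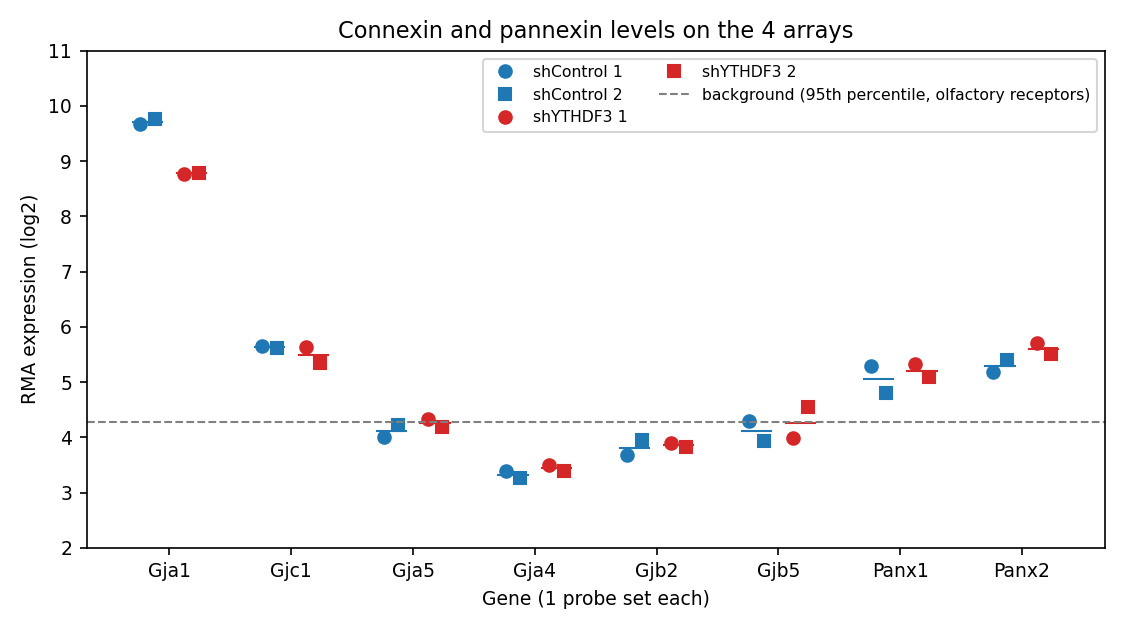
Log2 expression of the 8 genes on each array (circles, replicate 1; squares, replicate 2; blue, shControl; red, shYTHDF3), with group means as short lines and the background of 4.28 dashed. Gja1 stands between 8.78 and 9.76 with its groups apart, Gjc1, Panx1 and Panx2 lie between 4.81 and 5.70, and the other 4 genes lie around or below the background.

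The Gja1 call was lost in several alternatives. Without the filter on dim probe sets the limma adjusted p was 0.0503, over every probe set past the filter it was 0.185, and without 1 array it lay between 0.116 (without shYTHDF3 1) and 0.177 (without shControl 2). The change itself lay between -0.97 and -0.89 when any 1 of the 4 arrays was left out.

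Markers of fibroblasts and mural cells, types that also carry connexin 43, did not move together. Of 6 such markers 5 lay above background, against 58.9% of all genes with a symbol of their own. Of these 5, 1 fell and 4 did not pass by limma, which called 2.73% of all genes tested. Pdgfra, a receptor of fibroblasts and other mesenchymal cells, changed by -0.61 (SE 0.10, limma adjusted p = 0.0471). That call was lost with every probe set past the filter tested, where nothing was called. Thy1 and Col3a1 differed by -0.44 and -0.23 and Pdgfrb and Col1a1 by 0.21 and 0.10, with a median of -0.23 over the 5. Summed on the linear scale, the 6 markers gave 808 to 885 in shControl and 591 to 599 in shYTHDF3, but Pdgfra alone made up 78.1% to 85.7% of that sum on each array. The 6 epithelial markers on the array gave 2618 to 2831 in shControl and 3542 to 3777 in shYTHDF3, of which Krt8 and Krt18 made up 93.6% to 96.6%. Such sums add values of different probes and follow the brightest genes, so they do not measure amounts of a cell type. None of the 4 above background passed. Krt8, Krt18 and Cdh1 differed by 0.31, 0.57 and 0.10 (limma adjusted p = 0.151, 0.0527 and 0.612), and Krt19 by -0.53 (limma adjusted p = 0.0816). The part of these markers in the Gja1 result was not tested.

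Above background lay 4 of the 8 members, against 58.9% of all genes with a symbol of their own. Of these 4, 1 fell, none rose and 3 did not pass, where limma called 2.73% of all genes tested (1.45% lower and 1.28% higher). At an unadjusted p under 0.05 limma counted 1 higher member, Panx2, and 1 lower, Gja1, against 22.6% of all genes. The groups did not overlap in 2 of the 4 members, a share close to the 54.0% of all genes tested. The median change of the 4 was 0.0076 and that of all genes tested was 0.0057. Whether the change of Gja1 differed from that of each other member was not tested. The means of Gjc1, Panx1 and Panx2 were above 99.0%, 98.6% and 98.9% of the olfactory receptor probe sets. Whether readings of that size reflect expression of the gene was not tested.

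Gjc1 encodes connexin 45, known from the heart's conduction tissue and from smooth muscle. It read 5.65 and 5.62 with the control hairpin and 5.63 and 5.36 with the Ythdf3 hairpin. The first shYTHDF3 array lay between the shControl arrays and the second was lower, so the groups overlapped. The difference was -0.14 (SE 0.12, 95% interval -0.44 to 0.15; limma adjusted p = 0.529). Without shYTHDF3 2 it was -0.0039, and without shYTHDF3 1 it was -0.28. The lower bound of the interval is 73.7% of the shControl level. Gjc1 read closer to background than Gja1, and whether RNA amounts differed as these array values did was not tested.

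Panx1, the widely expressed ATP release channel, read 5.29 and 4.81 with the control hairpin and 5.32 and 5.09 with the Ythdf3 hairpin. Its shControl arrays were 0.47 apart, the widest spread among the 4 members above background, and the groups overlapped. The difference of 0.16 (SE 0.18, 95% interval -0.28 to 0.60; limma adjusted p = 0.648) turned to -0.080 without shControl 2 and was 0.40 without shControl 1. The upper bound of the interval is 151.4% of the shControl level and the lower bound 82.2%.

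Panx2, a pannexin best known from the nervous system, read 5.19 and 5.40 with the control hairpin and 5.70 and 5.51 with the Ythdf3 hairpin. Both shYTHDF3 arrays lay above both shControl arrays, by 0.11 at the nearest, while the arrays within a group were 0.21 and 0.19 apart. The difference was 0.31 (SE 0.12, 95% interval 0.01 to 0.61), or 124.2% of the shControl level. It did not pass over all genes (limma unadjusted p = 0.0431, adjusted p = 0.205), and non-overlap in the upward direction was found in 28.3% of all genes tested. With any 1 array left out the difference lay between 0.21 and 0.42.

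**Figure D2:**
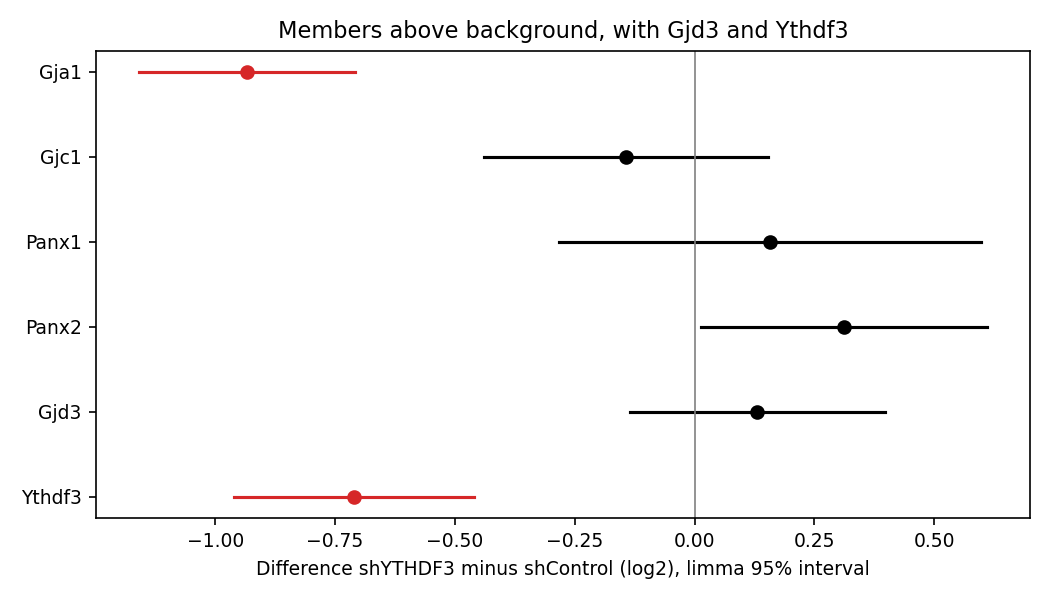
Difference between the group means, shYTHDF3 minus shControl, in log2 units with limma's 95% interval for the 4 members above background, for Gjd3 and for the targeted gene Ythdf3; red marks a limma adjusted p under 0.05. Among the connexins and pannexins drawn, the Gja1 interval of -1.16 to -0.71 alone lies wholly below 0, and that of Panx2 starts just above 0.

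Gja4 and Gja5 encode connexins 37 and 40, the typical connexins of arterial endothelium. Gja5 read 4.00 and 4.22 with the control hairpin and 4.33 and 4.18 with the Ythdf3 hairpin. Only the first shYTHDF3 array exceeded its own background of 4.29, and the mean lay 0.097 below the overall background, above 94.7% of the olfactory receptor probe sets. Gja4 read 3.39 and 3.26 with the control hairpin and 3.50 and 3.39 with the Ythdf3 hairpin, under the background on all 4 arrays and above 78.2% of the olfactory receptor probe sets. Neither was tested, and the group means of Gja4 and Gja5 differed by 0.12 and 0.14 with values this close to background.

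Gjb2 encodes connexin 26, a connexin of glandular epithelium, liver and the inner ear. It read 3.68 and 3.94 with the control hairpin and 3.90 and 3.83 with the Ythdf3 hairpin, with the shYTHDF3 arrays inside the range of the shControl arrays. None of the 4 values reached the background, and the mean was above 89.5% of the olfactory receptor probe sets. Gjb5 encodes a connexin of stratified epithelium and trophoblast. Its shYTHDF3 arrays were 0.56 apart, the widest range within a group among the 8 genes. It read 4.30 and 3.93 with the control hairpin and 3.98 and 4.54 with the Ythdf3 hairpin, and only the last exceeded its array's background of 4.34. The mean of Gjb5 lay 0.092 below the overall background. Neither Gjb2 nor Gjb5 was tested, and a level under background is not evidence that a gene is silent, since a weak probe set gives the same reading.

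**Figure D3:**
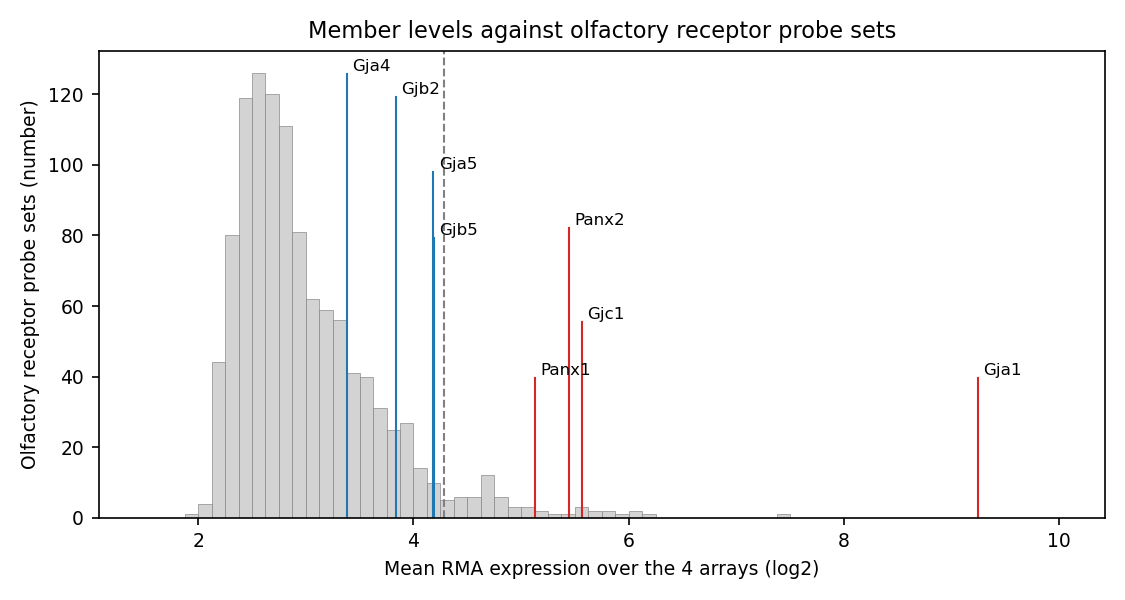
Histogram of the mean log2 expression of 1108 olfactory receptor probe sets over the 4 arrays, with the 8 genes drawn as vertical lines (red, above the background and tested; blue, below it) and the background of 4.28 dashed; line heights carry no value. Gja1 stands at 9.25, beyond the whole histogram, while Gja5 and Gjb5 stand just under the dashed line.

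Of the 11 other connexin and pannexin genes analysed here, 1, Gjd3, lay above background, against 58.9% of all genes with a symbol of their own. Gjd3 encodes a connexin known from the heart's conduction system. It read 5.95 and 6.08 with the control hairpin and 6.22 and 6.07 with the Ythdf3 hairpin, and the groups overlapped by 0.017. Its difference was 0.13 (SE 0.11, 95% interval -0.13 to 0.40; limma adjusted p = 0.517). The other 10 read below background on average and were not tested.

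Connexin 43 works with scaffold, adhesion and kinase partners. The gap junction partner list held such genes and genes of other kinds, such as Cgas, Sting1, Tbk1, Irf3, Nedd4, Smurf2, Tsg101 and Hspa9. Its counts are therefore not counts of connexin 43 partners alone. Of its 28 genes on the array 25 lay above background, against 58.9% of all genes with a symbol of their own. Of these 25, 2 rose, 2 fell and 21 did not pass by limma, with a median change of 0.0054. Of all genes tested limma called 2.73% (1.45% lower and 1.28% higher). Cav1, which encodes the caveolae scaffold caveolin-1, read 7.02 and 7.11 with the control hairpin and 5.98 and 6.20 with the Ythdf3 hairpin. Its change of -0.98 (SE 0.11, limma adjusted p = 0.0262) was close in size to that of Gja1. Akap12, a scaffold that anchors protein kinase A, read 6.50 and 6.37 with the control hairpin and 5.80 and 5.69 with the Ythdf3 hairpin, a change of -0.69 (SE 0.10, limma adjusted p = 0.0377). For both genes each shYTHDF3 array lay under each shControl array, as it did in 25.7% of all genes tested.

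The other pair went up. Jup, plakoglobin of adherens junctions and desmosomes, read 7.34 and 7.52 with the control hairpin and 8.36 and 8.23 with the Ythdf3 hairpin, a change of 0.87 (SE 0.11, limma adjusted p = 0.0297). Prkaca, a catalytic subunit of protein kinase A, read 8.87 and 8.81 with the control hairpin and 9.48 and 9.47 with the Ythdf3 hairpin, a change of 0.64 (SE 0.09, limma adjusted p = 0.0341). A dimmer second Prkaca probe set differed by 0.25, and with the mean of both the change was 0.45 (limma adjusted p = 0.0837). Tjp1, which encodes the scaffold ZO-1 that binds the tail of connexin 43, differed by 0.12 (SE 0.10) and did not pass (limma adjusted p = 0.548). Ctnnb1, the beta-catenin gene, differed by -0.18 (SE 0.09) and did not pass either (limma adjusted p = 0.325). Pcdh7, a protocadherin that helps carcinoma cells join astrocytes through connexin 43, lay below background on all 4 arrays. Cyclic GMP-AMP, a messenger that can cross gap junctions, is made by the product of Cgas and sensed by that of Sting1. Cgas differed by -0.12 (SE 0.20, limma adjusted p = 0.779). Sting1 read 8.79 and 8.75 with the control hairpin and 9.23 and 9.28 with the Ythdf3 hairpin, a difference of 0.49 (SE 0.09) that just missed the threshold (limma adjusted p = 0.0544; it passed at 0.00365 in the fit whose variance followed intensity). Cnst, which encodes consortin, a receptor in connexin transport, missed by a like margin in the other direction, at -0.53 (SE 0.10, limma adjusted p = 0.0550), and it too passed in that fit, at 0.0361. Tjp1, Ctnnb1, Pcdh7, Cgas, Sting1 and Cnst were picked out after their values were seen.

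ATP released through pannexins is read by purine receptors and broken down by enzymes at the cell surface. The purine signalling list held such receptors and enzymes, and also ATP release genes, Lrrc8a, Lrrc8c, Lrrc8d, Calhm2 and Slc17a9. Of its 24 genes on the array 10 lay above background, against 58.9% of all genes with a symbol of their own. Of these 10, 2 fell, none rose and 8 did not pass by limma, with a median change of -0.03. Nt5e encodes CD73, which turns AMP into adenosine. It read 9.91 and 9.89 with the control hairpin and 8.69 and 8.80 with the Ythdf3 hairpin, a change of -1.15 (SE 0.10, limma adjusted p = 0.0131), and the arrays within each group were close together. P2ry6, a receptor for UDP, read 5.96 and 6.15 with the control hairpin and 5.29 and 4.95 with the Ythdf3 hairpin, a change of -0.94 (SE 0.14, limma adjusted p = 0.0389). Its groups did not overlap, as in 25.7% of all genes tested in the downward direction. The shYTHDF3 arrays of P2ry6 differed more from each other than those of Nt5e. P2rx4 and P2rx7 differed by 0.40 and 0.32 and did not pass (limma adjusted p = 0.0928 and 0.127). In the fit whose variance followed intensity they passed, at 0.0243 and 0.0493. Lrrc8d differed by -0.52 and passed in neither (limma adjusted p = 0.0603, and 0.0521 in that fit). These genes were picked out after their values were seen. Together with Gjd3, the gap junction and purine lists held 36 tested genes and 6 calls, against 2.73% of all genes tested, and the 6 were lost when any 1 array was left out. Of the 6, only Nt5e was still called without the filter on dim probe sets. A variance model that followed intensity gave 10 calls among the 36, where it called 10.9% of all genes tested.

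**Figure D4:**
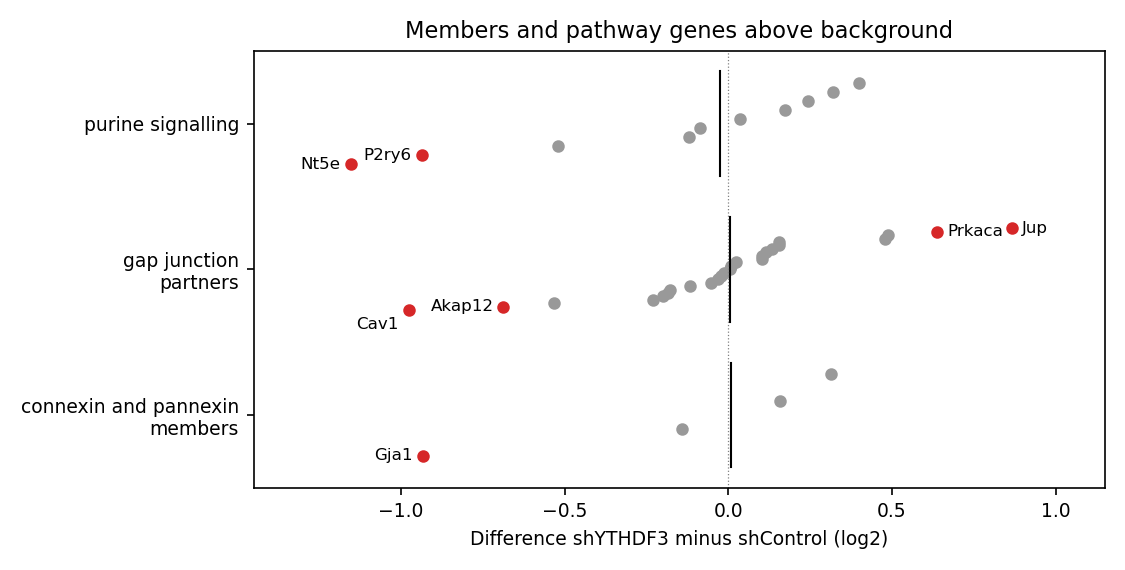
Difference between the group means, shYTHDF3 minus shControl, in log2 units for each gene above background in 3 lists. These hold 4 members, 25 genes of the gap junction partner list and 10 of the purine signalling list. Red marks a limma adjusted p under 0.05 and the black lines are list medians. The medians of 0.0076, 0.0054 and -0.03 lie near 0, with Gja1, Cav1, Akap12, Nt5e and P2ry6 far to the left and Jup and Prkaca to the right.

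The genes whose values followed Gja1 most closely over the 4 arrays were ranked by the root mean square distance between log2 values, each gene centred on its own mean. With only 4 arrays this mostly finds falls of the same size. The closest were H2-Q10 (0.037), Fosl2 (0.037), Cyp2c55 (0.041), Bhlhe40 (0.048) and Ier3 (0.054). Fosl2, a Fos-family subunit of AP-1, read 8.55 and 8.59 with the control hairpin and 7.71 and 7.69 with the Ythdf3 hairpin. Bhlhe40, a basic helix-loop-helix repressor, read 9.19 and 9.31 with the control hairpin and 8.39 and 8.27 with the Ythdf3 hairpin. Ier3, an immediate early gene, read 10.84 and 10.80 with the control hairpin and 9.96 and 9.95 with the Ythdf3 hairpin. The likeness of H2-Q10 and Cyp2c55 holds for 1 of their 2 probe sets, as the other differed by -0.50 and -0.05. H2-Q10 also belongs to a family of near-identical class I genes, so which of them was measured is uncertain.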

How the data were processed

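Total RNA of 4T1Br cells was hybridised to Affymetrix arrays, 2 arrays a group by their titles. The authors deposited 1 log2 value per probe set and array, normalised with RMA per the submitters' processing notes; version and build were not given in the sources used here, and the log2 scale was inferred from the range of the values. RMA makes array distributions alike, so a shift of most genes one way would not be seen. Arrays have no read depth; 2 a group limits the precision.

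Of 41345 probe sets, 23521 had 1 gene symbol in the platform annotation, 1814 several and 16010 none; 23328 took their current symbol through RefSeq by Entrez identifier. Each gene was represented by its brightest probe set, and the 13056 of 22180 genes with a mean above the olfactory receptor background of 4.28 were tested with limma 3.58.1 (lmFit and eBayes, two-sided, R 4.3.3), with Benjamini-Hochberg adjustment over all of them and a threshold of 0.05. The steps were tested on data simulated from the variance model that limma fitted, with no link between spread and intensity. That checks the steps and not whether the model holds for these arrays. Promoter windows were read from a RefSeq table (GRCm38.p6).

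The members and the lists were chosen with earlier results of these data known. The genes named were the 8 members, Ythdf3, other connexins and pannexins above background, up to 6 genes past the threshold in each of the gap junction and purine lists, and the 5 genes most like Gja1, gene models left out. Other genes named, among them the cell type markers, were picked from their lists after their values were seen. Alternatives were the filter, the variance model, the normalization, the choice of probe sets, a replicate block, the features tested and leaving out each array. Figures used matplotlib 3.10.9.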

Additional observations from a re-analysis of the deposited data

How the results depend on the processing

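Without the filter on dim probe sets, limma called 0 of the 8 members (Gja1 -0.93, adjusted p = 0.0503), 1 pathway gene (Nt5e) and 43 genes in all. With every probe set past the filter tested it called 0 members (Gja1 -0.93, adjusted p = 0.185), 0 pathway genes and 0 features in all. With an intensity trend it called 10 pathway genes and 1426 genes, and with robust estimation added 10 and 1465; Gja1 was called in both. The replicate numbers are not said to pair the arrays, and deviations of same-numbered arrays correlated at -0.066; with the replicate number as a block, limma called 0 members (Gja1 -0.93, adjusted p = 0.0608), not Ythdf3 (0.0758), 1 pathway gene and 51 genes. Leaving out an array puts 1 array against 2, so that the single array is assumed to vary as the others do and fewer residual degrees of freedom remain: the counts were 0 to 0 for members and pathway genes and 0 to 12 for all genes, and the changes ran from -0.97 to -0.89 for Gja1, from -0.28 to -0.0039 for Gjc1, from -0.080 to 0.40 for Panx1 and from 0.21 to 0.42 for Panx2. The Panx1 difference was -0.080 without shControl 2. Gjc1, Panx1 and Panx2 were not called under any of these alternatives. Gja1 kept its direction under all 13, though its call was lost in several, and most of the 13 could not have turned it. The filter, the variance model, the choice of probe sets, the block and the features tested leave its change at -0.93. Leaving out 1 array cannot turn groups that do not overlap. Only the changes of normalization could have, and under them the change was -0.90 and -0.91. For Gja4, Gja5, Gjb2 and Gjb5 the signal was too near background for a difference to be read.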
